A study of Sus scrofa with 18 samples.

Results

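Array positions whose signal fell between birth and 5 months of age are described here, 40 of 140 measured in pig longissimus dorsi, a muscle that runs along the back. They were chosen by their own fall. At each position the log2 ratio of Cy3 to Cy5 (background subtracted, each array centred on its median ratio) was combined over the 6 arrays of an age loop into a change from month 0 to month 5. The members are the positions at which this change, averaged over both breeds, was -0.2 or lower. By the same values 47 positions rose, with a change of 0.2 or more, and 53 lay between. The size of the fall is therefore a description here and carries no test.

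The muscle came from a lean breed of pig, Landrace, and from a fat breed, Taihu, each sampled as newborns (month 0) and at 1, 2, 3, 4 and 5 months. Every combination of breed and month was present on 3 of 18 two-colour arrays. In each breed 6 arrays formed a loop, in which each age from month 1 on was paired with the preceding month and the loop was closed by month 0 with month 5, and 6 further arrays set Landrace (Cy3) against Taihu (Cy5) at each age. All pigs were untreated as far as the labels say, and how many animals stood behind each RNA is not stated in the labels. The p-values below measure only the spread between hybridisations, which may be technical.

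After birth pig muscle no longer adds fibres in number to any great extent and grows by enlarging those it has. Fibres replace their foetal and neonatal forms of contractile proteins by adult ones, dividing precursor cells become fewer, and genes of the growing matrix are turned down. Lean and fat breeds differ in fibre make-up, growth rate and the fat laid down between fibres. These facts are background only. The files identify a position by its place in the printed grid and do not pair it with a gene, so no member can be assigned to such a process and no gene or probe sequence is given. For the same reason the tissue could not be checked against muscle markers, and marker lists of other cell types could not be counted. In RNA from whole tissue, fewer cells of a type and less RNA per cell cannot be told apart.

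A position is written by grid row, first block, row and column, so that Sr01Sc01R04C09 lies in grid row 1, row 4, column 9. It is the mean of 4 blocks that repeat the grid. Of the 40 members 16 lay in grid row 1 and 24 in grid row 2, of 70 positions in each. All 40 stood above background on all arrays, and 2 were saturated on at least 1 array, as were 15 of the 140. The median background-subtracted signal of a member ran from 331 to 24212, with a median of 2646 over the 40. The other 100 positions had a median of 610.2, so the members were on the whole bright. Array medians lay between 737 and 1633 in Cy3 and between 621 and 1865 in Cy5.

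The falls ran from -2.84 to -0.22 log2 units, with a median of -0.81. They were of 1 or more at 15 members, between 0.5 and 1 at 11 and between 0.2 and 0.5 at 14. The change was below 0 in the Taihu loop at all 40 and in the Landrace loop at 38, and it passed the limit of -0.2 in both breeds at 37. On the arrays that set month 0 directly against month 5, the later age was lower in both breeds at 36 members. Over all 140 positions it was so at 59. These arrays entered the change that chose the members, so nothing is read from that count. Taken in each of the 4 blocks alone, 37 members passed the limit in every block. The SD of a member's change over the blocks had a median of 0.065 and ran from 0.029 to 0.561.

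Just inside the limit lay Sr01Sc01R08C03 at -0.22, Sr02Sc01R04C03 at -0.30 and Sr01Sc01R04C08 at -0.34. Just outside lay Sr01Sc01R09C09 at -0.19, Sr01Sc01R08C07 at -0.18 and Sr02Sc01R04C09 at -0.17. At the first of the 6 the breeds were on opposite sides of 0, with 0.06 in Landrace and -0.49 in Taihu.

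**Figure D1:**
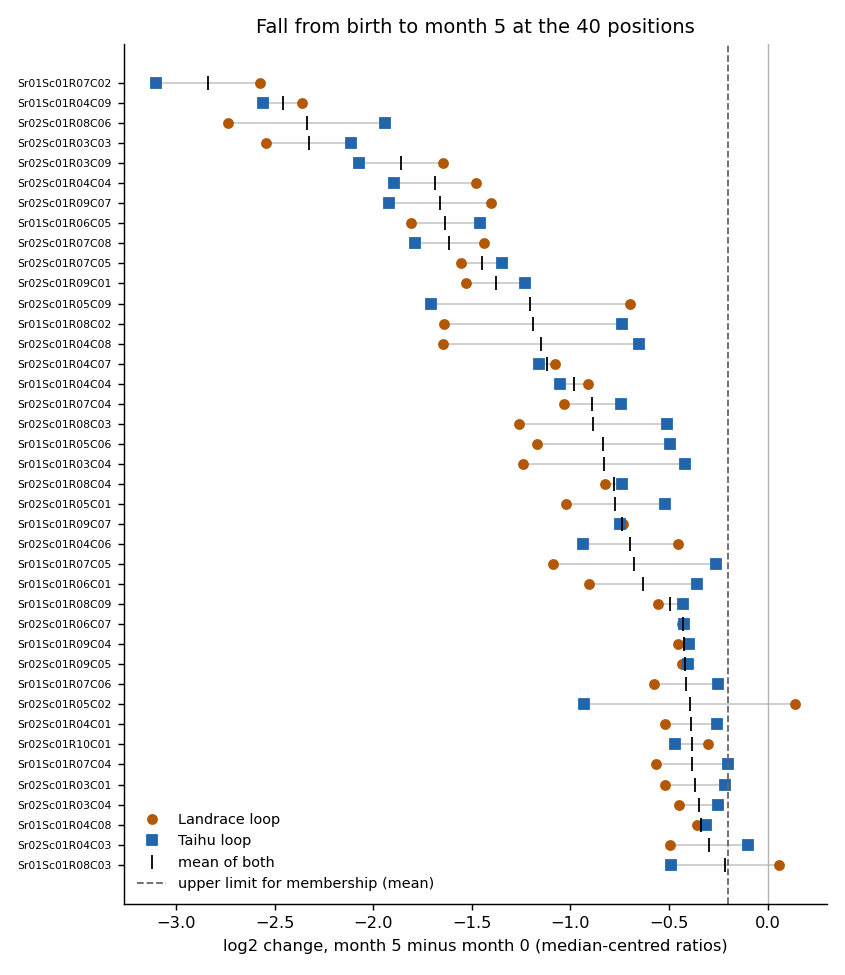
The horizontal axis is the log2 change from month 0 to month 5 that chose the members; each line is a position, with the Landrace loop as a circle, the Taihu loop as a square and their mean as a tick. The means run from -2.84 to -0.22, and the circle lies right of 0 at 2 positions.

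Normalization bears on which positions belong. With normexp background correction and loess, as in the fit used below, 40 positions again passed -0.2, and 31 of them were members. The 9 members that did not pass had changes of -0.42 to -0.22 by the rule. With normexp and loess their changes ran from -0.18 to 0.20, with a median of -0.053. Of 2 settings added after seeing the data, loess alone gave 41 positions with 31 members among them, and normexp alone gave 40, all of them members. In the fit, the median change of the members was -0.62, against -0.0046 over all 140. The change by the rule minus that in the fit had a median of -0.28 in the members and 0.034 over all 140. The change in the fit was below 0 at 37 of the 40 and at 70 of all 140. It was called lower at month 5 at 31 of the 40, where 27.1% of all positions were. Since the members were chosen on this contrast, nothing is read from that count.

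Sr01Sc01R04C09 had the largest fall among members never saturated, -2.46, with -2.36 in Landrace and -2.56 in Taihu. Its background-subtracted signals in Landrace were 46643, 16020 and 28292 at month 0 and 3738, 7456 and 7095 at month 5. In Taihu they were 20474, 39367 and 27569 at month 0 and 7081, 9805 and 4898 at month 5. In both breeds the lowest signal at birth was above the highest at month 5. Most of these signals came from the loop arrays that chose the members. Nothing is therefore read from ages lying apart in them, here or at the members below. The background-subtracted signals here and below are not normalized, so differences in brightness between arrays remain in them. The month 0 over month 5 log2 ratio after loess was 2.09 on the Landrace array and 1.97 on the Taihu array.

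The way down at Sr01Sc01R04C09 was not even. Relative to month 0 the fitted log2 level, averaged over the breeds, was -1.31, -2.40, -1.44, -1.98 and -2.16 at months 1 to 5. The step from month 2 to month 3 went up on both loop arrays, with log2 ratios of 0.74 in Landrace and 0.93 in Taihu. The adjusted p of the test for uneven month steps, described below, was 2.86e-06 at this position (limma).

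Sr02Sc01R08C06 came next among the members never saturated, with a fall of -2.34, of which -2.74 in Landrace and -1.94 in Taihu. Its signals in Landrace were 8710, 5963 and 9332 at month 0 and 951, 1936 and 873 at month 5. In Taihu they were 5234, 5355 and 2522 at month 0 and 1442, 1757 and 1646 at month 5. The ages did not overlap in either breed, which the choice of members favours. The fitted Landrace level fell at each of the 5 steps, to -1.28, -1.48, -1.88, -1.94 and -2.13 relative to month 0. In Taihu it was -0.99, -0.81, -1.33, -1.67 and -1.65, so that the largest step in each breed was the one to month 1.

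The most negative rule value of all, -2.84, was that of Sr01Sc01R07C02, where the scanner ceiling was reached at birth. In Landrace 2 of its 3 month 0 signals were saturated, and in Taihu all 3 were. The signals in Landrace were 64679, 42283 and 57176 at month 0 and 2798, 5344 and 9428 at month 5. In Taihu they were 41282, 64728 and 53574 at month 0 and 3993, 3641 and 10748 at month 5. The 2 ages stood far apart in both breeds, which the choice of members favours. On the arrays of month 0 against month 5, the log2 ratio after loess was 2.34 in Landrace and 2.45 in Taihu, with month 0 saturated on both. In channel means after loess and Aquantile normalization, the Taihu log2 level at month 0 was 16.21 ± 0.31 and that at month 5 was 12.41 ± 1.19 (SD over 3 signals). These means lie 13.9-fold apart, but they join signals of different arrays with this spread, so the value is no firm lower limit. The Landrace means were 15.25 ± 0.38 and 12.23 ± 0.79 (SD, n = 3).

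Over the 40 members, the median fitted level relative to month 0 was -0.19, -0.37, -0.50, -0.62 and -0.62 at months 1 to 5. The median thus reached its month 5 value by month 4. In Landrace the medians were -0.18, -0.36, -0.56, -0.64 and -0.54, and in Taihu -0.18, -0.42, -0.47, -0.51 and -0.53. Single positions went other ways. Birth was the highest of the 6 ages at 25 members, and the lowest age was month 5 at 15, month 4 at 11, month 3 at 4, month 2 at 5 and month 1 at 4. At the remaining member month 0 itself was the lowest in this fit. Levels went down at 31, 28, 22, 26 and 21 of the 40 members at the 5 successive steps, and at every step at 3. Over all 140 positions they went down at 72, 71, 61, 62 and 56, and at every step at 3. The choice of members favours downward steps and a high level at birth, so nothing is read from these counts.

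**Figure D2:**
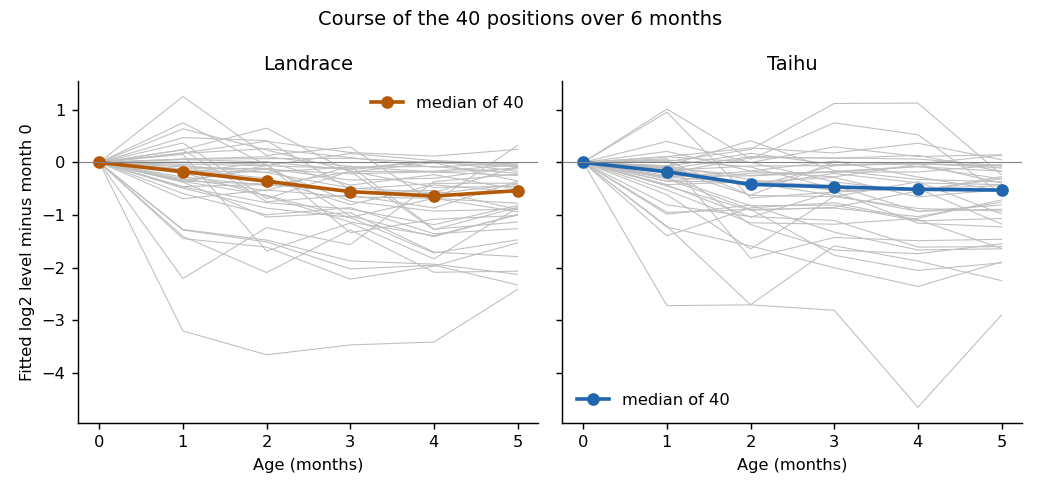
The horizontal axes are age in months and the vertical axes the fitted log2 level minus that at month 0, for Landrace on the left and Taihu on the right. Grey lines are the 40 positions and the coloured line is their median, which reaches -0.54 in Landrace and -0.53 in Taihu at month 5; several grey lines rise before they fall.

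How the fall was spread over the months was not used in choosing the members. The ratios of all 18 arrays were fitted with limma on the 12 combinations of breed and month and a dye term for each position, and calls were made at a Benjamini-Hochberg adjusted p of 0.05 over all 140. A moderated F over 4 contrasts asked whether the 5 month steps, averaged over the breeds, were unequal. They were at 33 of the 40 members, against 54.3% of all positions. All 15 members with a fall of 1 or more were among them, 10 of the 11 with a fall between 0.5 and 1, and 8 of the 14 with a smaller fall. The members were chosen for their change and were brighter than the others, and all 140 include the 53 positions without net change. The part of size of change and brightness in these counts was not tested. Without the dye term 19 members were called, and 38 of all 140 positions. In this fit, error that the matching arrays of both loops share is not measured, because all residuals stem from month-to-month variation of the breed difference.

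Uneven steps were clearest at Sr01Sc01R05C06 and Sr02Sc01R07C08, the 2 members with the smallest p in this test. At Sr02Sc01R07C08 the log2 ratio of month 1 to month 0 was 0.14 in Landrace and 0.02 in Taihu. The ratio of month 2 to month 1 was -1.83 and -1.97. The drop from month 1 to month 2 was thus present in both breeds, while the first step was -0.21 in Landrace and -0.13 in Taihu in the median-centred ratios that chose the members. Averaged over the breeds the fitted level relative to month 0 was 0.11, -1.76, -1.29, -1.66 and -1.16 at months 1 to 5 (limma adjusted p of the uneven steps 2.51e-07).

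At Sr01Sc01R05C06 the steps alternated. The Landrace log2 ratios of each month to the month before were 0.13, -1.28, 0.28, -1.36 and 0.21, and the Taihu ratios 0.82, -1.17, 0.49, -0.42 and -1.36. After loess both breeds rose to month 1, dropped to month 2, rose to month 3 and dropped to month 4. The breeds parted at the last step, which was upward in Landrace and downward in Taihu. In the median-centred ratios that chose the members, the step to month 1 was only 0.02 in Landrace and was 0.89 in Taihu. The adjusted p for uneven steps was 2.51e-07 (limma).

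The 6 arrays that set the breeds against each other gave a second look at the same ages, since the choice of members did not use them. The level of a position was taken as the mean log2 signal of both channels minus the array's median over positions. It was lower on the month 5 array than on the month 0 array at 37 of the 40 members. Over all 140 positions this share was 72.1%, or 101, and among the 100 other positions it was 64. The median change was -0.86 in the members and -0.35 over all 140, and 32 members lay below the latter. The 15 members with a fall of 1 or more were all lower, with a median of -1.40, as were the 11 with a fall between 0.5 and 1, with a median of -0.84. Of the 14 with a smaller fall 11 were lower, with a median of -0.29.

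**Figure D3:**
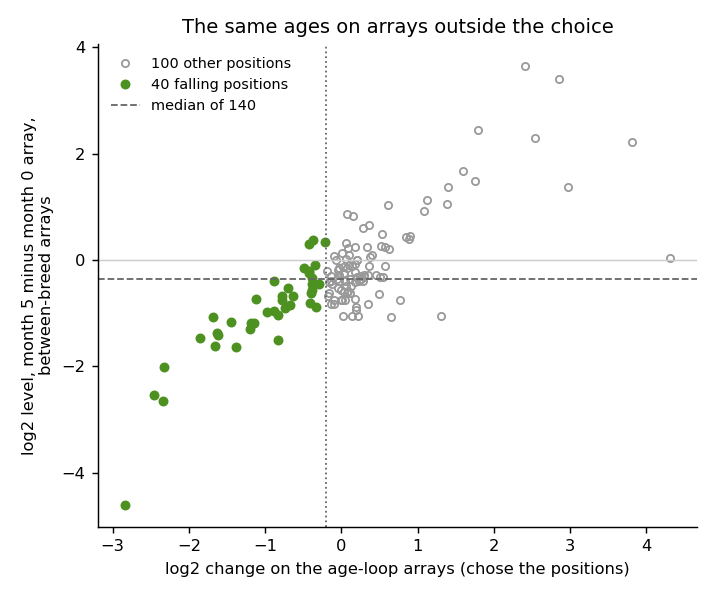
The horizontal axis is the log2 change from month 0 to month 5 on the age-loop arrays, which chose the members (dotted line at -0.2), and the vertical axis the log2 level of the month 5 minus the month 0 between-breed array. Filled points are the 40 members, of which 37 lie below 0, and open points the other 100, of which 64 do; the dashed line is the median of all, -0.35.

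Each age was on a single between-breed array, and a straight line over the 6 months gave no call. No member and no other position passed an adjusted p of 0.05 in limma (0%), with 4 residual degrees of freedom. The slope was below 0 at 39 of 40 members and at 100 of all 140. At an unadjusted p under 0.05, 10 positions passed, and the 4 members among them were all downward, against 2.86% of all positions. That count of 4 rested on single arrays: it was 0 without the month 0 array, 1 without month 4, 10 without month 5 and 13 without month 3.

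Signals of the breeds taken alone gave the same side. In the Landrace channel, Cy3, 32 members were lower at month 5 than at month 0, and 88 of all 140. In the Taihu channel, Cy5, 39 members were lower, and 112 of all 140. The median change of the members was -0.64 in Landrace and -1.30 in Taihu, but each breed was in its own dye on these arrays, so breed and dye cannot be told apart here.

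The 3 members that were higher on the month 5 array were Sr02Sc01R03C01 at 0.38, Sr01Sc01R08C03 at 0.34 and Sr01Sc01R09C04 at 0.30, named after their values were seen. Their falls by the rule were -0.37, -0.22 and -0.42. None of the 3 fell by as much as 0.5.

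Since most positions fell on these arrays, the count depends on what an array is centred on. With each array centred on the median deviation from the positions' own means, 32 of 40 members and 71 of all 140 were lower at month 5, with medians of -0.53 and -0.018. The grid rows also shifted against each other. The median level of grid row 1 minus that of grid row 2 was 0.22, 0.52, 1.45, 2.01, 0.55 and 0.63 at months 0 to 5, while the ratios differed between grid rows by -0.12 to 0.06. With centring within each grid row 36 members and 100 of all 140 were lower, with medians of -0.96 and -0.36.

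The named members on these arrays showed the sizes involved. At Sr01Sc01R04C09 the level was 5.00, 3.65, 2.97, 4.46, 2.87 and 2.47 above the array median at months 0 to 5. At Sr02Sc01R08C06 it was 2.93, 1.01, 0.14, -1.01, 0.28 and 0.28. Birth was the highest age at both, with changes of -2.53 and -2.65 by month 5. The return at month 3 seen at Sr01Sc01R04C09 in the loops was also present on these arrays. This position lies in grid row 1 and Sr02Sc01R08C06 in grid row 2. The shift of grid row 1 against grid row 2, of 1.45, 2.01 and 0.55 at months 2, 3 and 4, was not taken out of these levels.

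Breed differences had no part in the choice of members. Averaged over the 6 ages, 10 members were higher in Landrace, against 26.4% of all 140 positions, and 11 were lower, against 17.9%. The share higher in Landrace was near that of all positions. The absolute difference had a median of 0.15 log2 units in the members and 0.12 over all 140. Landrace was in Cy3 on all 6 between-breed arrays, so the mean difference rests on a dye term estimated from the age loops. Error that these 6 arrays share enters the mean difference and is not measured by its SE or p, here or at the positions below. All 21 members called for the mean difference were also called for a breed difference that varied with month, as were 49 of the 62 such positions among all 140.

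Sr01Sc01R06C01 was the member with the largest mean difference toward Landrace, 0.61 ± 0.0393 (SE, limma adjusted p 4.31e-06). The log2 ratios of Landrace to Taihu were 0.33, 0.74, 0.78, 0.11, 0.13 and 0.12 on the arrays of months 0 to 5. After loess they were above 0 at every age and largest at months 1 and 2. In median-centred ratios without normexp they were -0.04, -0.04 and 0.0035 at months 3, 4 and 5. In the fit, which takes a dye effect out of these ratios, the difference was called at all 6 ages and ran from 0.30 at month 3 to 1.10 at month 2. The mean difference was 0.37 without the dye term, with an adjusted p of 0.0399.

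Sr01Sc01R08C09 followed with 0.42 ± 0.0413 (SE, limma adjusted p 6.86e-05). Its ratios were 0.36, 0.58, 0.64, 0.42, 0.20 and 0.48 at months 0 to 5, again all above 0. These are the 2 members at which the breeds differed at all 6 ages. The month steps at Sr01Sc01R08C09 were not called uneven (adjusted p 0.901).

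In the other direction Sr02Sc01R04C06 had the largest mean difference, -0.89 ± 0.0893 (SE, limma adjusted p 7.05e-05). Its log2 ratios of Landrace to Taihu were -1.69, -0.47, -0.54, -1.21, -1.91 and -0.71 at months 0 to 5. Landrace was lower at every age, and by most at birth and at month 4. The fitted difference was called at months 0, 3, 4 and 5 and not at months 1 and 2.

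Sr01Sc01R04C09, the position with the large fall above, was also lower in Landrace, by -0.72 ± 0.0596 (SE, limma adjusted p 2.81e-05). Its ratios were -1.09, -1.18, -0.29, -0.68, -1.22 and -0.64. Its fitted difference was called at every age other than month 2, where it was -0.22. Taihu was above Landrace on the arrays of all 6 ages. The difference between the breeds' fitted changes there was 0.18 ± 0.110 (SE, limma adjusted p 0.234) and was not called.

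At the single ages, the breeds differed at 19 members at month 0, against 37.9% of all positions. At months 1 to 5 they differed at 21 (39.3%), 23 (38.6%), 19 (28.6%), 23 (39.3%) and 17 (30%), where the percentages again refer to all 140. By direction, Landrace was higher at 10, 12 and 13 and lower at 9, 9 and 10 of the called members at months 0, 1 and 2. At months 3 and 4 it was higher at 5 and 8 and lower at 14 and 15, and at month 5 higher at 9 and lower at 8. Over all 140 positions it was higher at 32, 31, 30, 20, 27 and 26 and lower at 21, 24, 24, 20, 28 and 16 at months 0 to 5. No test of a shift in direction was made.

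**Figure D4:**
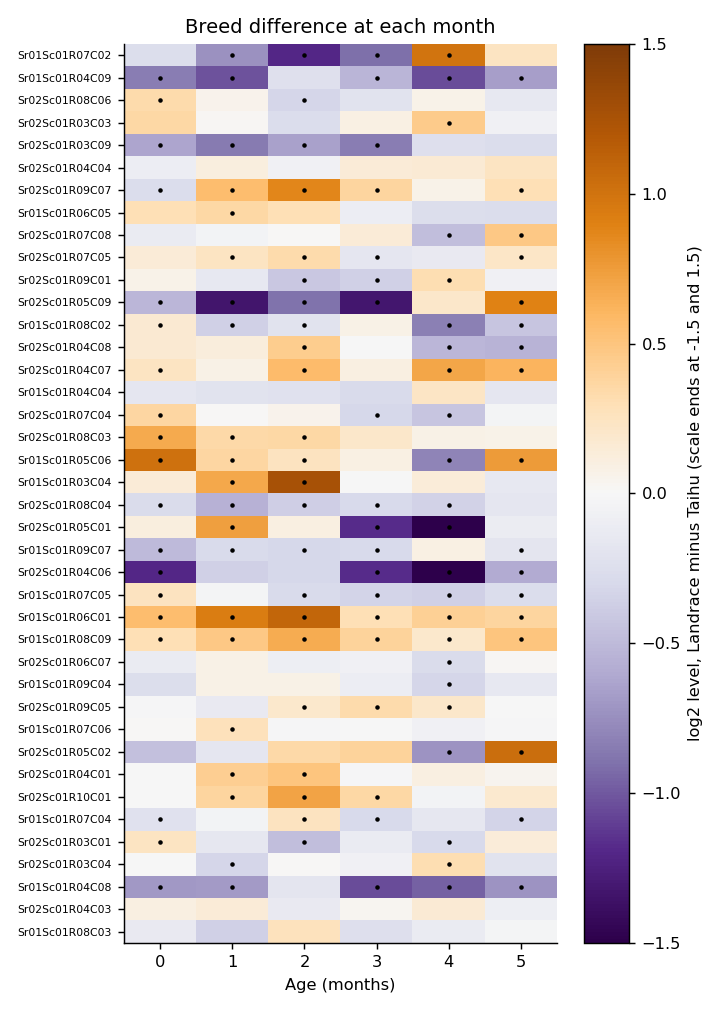
Rows are the 40 positions in the order of their fall, columns the age in months, and the colour the fitted log2 level of Landrace minus Taihu (orange higher in Landrace, purple lower; the scale ends at -1.5 and 1.5). A dot marks an adjusted p of 0.05 or less; 36 positions have at least 1 dot, 2 have all 6, and many change colour along the row.

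Counted by position, 36 members differed between the breeds in at least 1 month, as did 105 of all 140. At 17 of them the breeds were called in opposite directions in different months, as at 36 of all 140. The difference kept its sign over all 6 ages at 9 members and at 29 of all 140. In no breed test (mean, change or interaction with month) were 3 of the 40 members and 33 of all 140 positions called.

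The moderated F for a breed difference that varied with month called 34 of the 40 members, against 58.6% of all 140. It called 14 of the 15 members with a fall of 1 or more, 10 of the 11 with a fall between 0.5 and 1, and 10 of the 14 with a smaller fall. The members were also the brighter positions, with median signals of 2646 against 610.2 in the others, and the part of brightness in these counts was not tested. Without the dye term 17 members were called, and 34 of all 140 positions.

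Sr01Sc01R05C06 had the smallest p in this test (limma adjusted p 6.17e-07). Its log2 ratios of Landrace to Taihu were 0.74, 0.17, 0.01, -0.13, -0.98 and 0.55 at months 0 to 5. Landrace was higher at birth, lower at month 4 and higher again at month 5. The fitted differences at these 3 ages were 1.01, -0.80 and 0.76, each ± 0.054 (SE). Fitted Taihu levels relative to birth were 1.02, 0.06, 0.75, 0.53 and -0.60 at months 1 to 5, so its fall came at the last step. In Landrace they were 0.37, -0.69, -0.17, -1.28 and -0.86.

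The fall itself was called as different between the breeds at 16 members. The change was more negative in Taihu at 8, against 16.4% of all positions, and more negative in Landrace at 8, against 18.6%. Both shares were near those of all 140. Among the 16 were 9 of the 15 members with a fall of 1 or more, 6 of the 11 with a fall between 0.5 and 1, and 1 of the 14 with a smaller fall. Without the dye term 7 members were called, and 17 of all 140 positions.

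**Figure D5:**
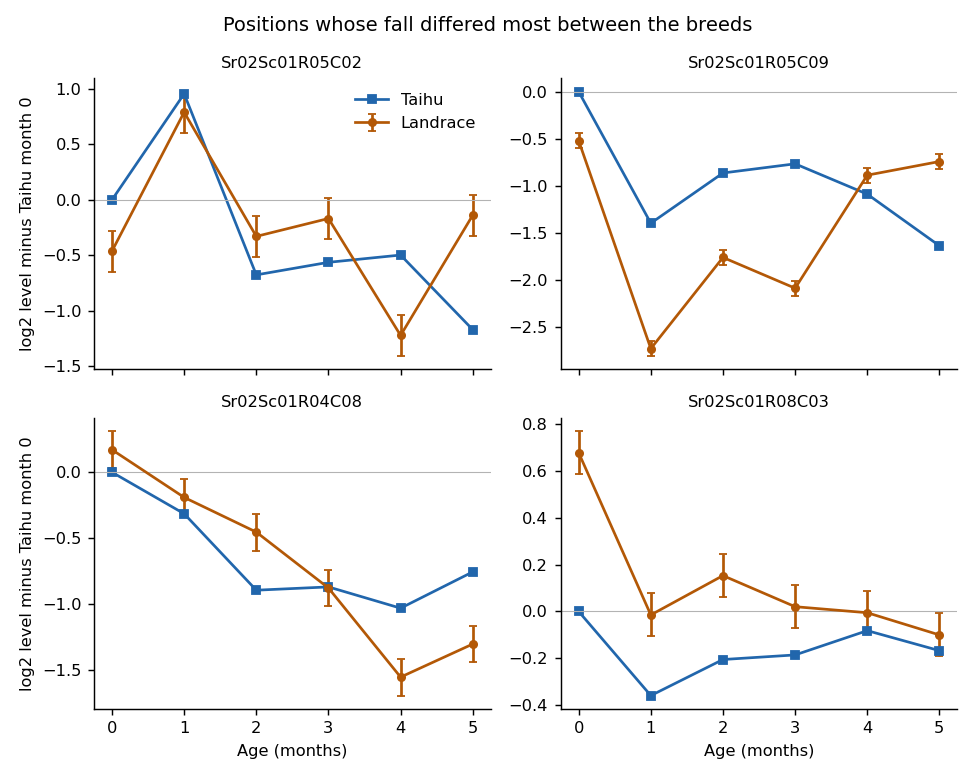
Fitted log2 level minus that of Taihu at month 0 against age in months, at the members whose fall differed most between the breeds (squares Taihu, circles Landrace; the bars are the SE of the breed difference at that age). In the upper panels Landrace ends above Taihu at month 5, by 1.03 and 0.90, and in the lower panels the fitted Landrace level starts above and falls further. On the month 0 between-breed array itself, the log2 ratio of Landrace to Taihu at Sr02Sc01R04C08 was -0.10.

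Sr02Sc01R05C09 fell further in Taihu. The log2 ratio of month 0 to month 5 after loess was 1.30 in the Taihu loop and 0.04 in the Landrace loop. In the median-centred ratios that chose the members it was 1.41 and 0.48, so the size of the Landrace fall depends on the normalization. The ratios of Landrace to Taihu were -0.88, -1.55, -1.15, -1.65, 0.05 and 0.67 at months 0 to 5, so Landrace was below Taihu until month 3 and above it at month 5. The difference of the changes was 1.42 ± 0.088 (SE, limma adjusted p 4.92e-06). It was 1.28 from the loops alone and 1.55 from the between-breed arrays alone, both after loess. Its background-subtracted signals in Taihu were 2135, 3946 and 1432 at month 0 and 592, 1746 and 912 at month 5, which overlap. Those in Landrace were 4005, 2036 and 3184 at month 0 and 1891, 3163 and 1879 at month 5, which also overlap. In channel levels after loess and Aquantile normalization, the ages still overlapped in Landrace. In Taihu they did not, with 11.37, 12.10 and 10.38 at month 0 and 9.25, 10.20 and 10.06 at month 5.

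In Landrace the low point of Sr02Sc01R05C09 came early. Its fitted level relative to birth was -2.21 at month 1 and then -1.24, -1.57, -0.37 and -0.22. The Taihu level was -1.40, -0.86, -0.77, -1.09 and -1.64. In this fit, after loess, Landrace thus fell and returned, while Taihu was lowest at month 5. The position had the next smallest p for an interaction with month (adjusted p 9.12e-07).

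Sr02Sc01R05C02 had the largest difference of the changes, 1.50 ± 0.210 (SE, limma adjusted p 0.000579), and is a dim position. Its change by the rule was 0.14 in Landrace and -0.93 in Taihu, so it was a member through Taihu. Signals in Taihu were 778, 646 and 623 at month 0 and 210, 367 and 923 at month 5, and in Landrace 642, 342 and 1509 at month 0 and 577, 1006 and 564 at month 5. The ages overlapped in both breeds. The ratio of Landrace to Taihu moved from -1.15 on the month 0 array to 0.87 on the month 5 array. Its change by the rule varied most of all members between blocks, with an SD of 0.561. From block 3 alone the difference was 0.65 with an adjusted p of 0.401, and without the dye term the adjusted p was 0.0695.

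The falls at Sr02Sc01R04C08 and Sr02Sc01R08C03 were larger in Landrace. At Sr02Sc01R04C08 the log2 ratio of month 0 to month 5 was 1.41 in the Landrace loop and 0.56 in the Taihu loop, and the difference of the changes was -0.72 ± 0.158 (SE, limma adjusted p 0.00703). Signals in Landrace were 2566, 1180 and 2602 at month 0 and 472, 977 and 598 at month 5, which do not overlap. In Taihu they were 1172, 1201 and 647 at month 0 and 740, 1159 and 864 at month 5, which overlap. The log2 ratios of Landrace to Taihu were -0.10, 0.19, 0.09, -0.18, -0.53 and -0.59 on the arrays of months 0 to 5. Without the dye term the adjusted p was 0.0659.

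At Sr02Sc01R08C03 the breeds differed at birth and came together. The log2 ratio of Landrace to Taihu was 0.80, 0.47, 0.59, 0.47, 0.23 and 0.29 at months 0 to 5. The fitted difference was 0.68 ± 0.092 (SE, limma adjusted p 0.000559) at month 0 and 0.07 ± 0.092 (SE, adjusted p 0.665) at month 5. Signals in Landrace were 19220, 10153 and 18619 at month 0 and 4641, 10190 and 5329 at month 5. They overlap only through 10153 and 10190, the signals of the between-breed arrays. These signals are not normalized. In channel levels after loess and Aquantile normalization the ages did not overlap, with 13.41, 13.47 and 13.07 at month 0 and 12.51, 12.50 and 12.46 at month 5. The log2 ratio of month 0 to month 5 was 0.95 in the Landrace loop and 0.36 in the Taihu loop. Taihu loop ratios of each month to the month before were -0.10, 0.47, 0.29, 0.30 and 0.14. Signals in Taihu were 5104, 6651 and 5886 at month 0 and 3075, 7045 and 3737 at month 5, which overlap. The Taihu channel levels were 12.42, 12.67 and 12.83 at month 0 and 11.59, 12.21 and 12.06 at month 5. These do not overlap. The difference of the changes was -0.61 ± 0.103 (SE, limma adjusted p 0.00169), and without the dye term the adjusted p was 0.110.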

How the data were processed

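The authors deposited spot intensities, unnormalized and linear, in separate files for the dyes of each array. Per the file headers the quantification software was at version 5.1 and segmented spots by a fixed circle. The sources used here do not give the software's name, the scanner or the hybridisation settings. Each array held 656 spots in 8 blocks of 82, and 12 leading addresses per block were left out. The 18 columns of the series' table were not used, since their numbered entries match no column of the scanner files.

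Members were found on the signal mean minus the background median (floor 50), as the opening describes. For tests, intensities were corrected with normexp (offset 50), loess-normalized and fitted with lmFit and eBayes in limma 3.58.1 under R 4.3.3, leaving 6 residual degrees of freedom, with 12 spots marked by the software left out. The fit was tested on simulated data. Positions were called at an adjusted p of 0.05 (Benjamini-Hochberg) over 140 positions. Saturation means that at least 2 of the 4 spots had a median pixel of 65535. With 18 arrays, their number limits the precision.

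The members, lists and tests were chosen with earlier results of these data known. Named positions are, in each comparison, at most 2 per direction: the largest falls, the largest called differences among members never saturated, and for the moderated F the smallest p. Alternatives were median centring, no dye term, plain background subtraction, no saturated positions, single blocks, each array left out, and other centring of levels. Tests of gene lists and markers could not be run without gene names.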

Additional observations from a re-analysis of the deposited data

Results flagged for a closer look

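At 8 of the named members the change from month 0 to month 5 differed between the breeds by limma's test of the difference, given as Landrace minus Taihu in log2 units with its adjusted p. It was more negative in Taihu at Sr02Sc01R05C02 (1.50, 0.000579), Sr02Sc01R05C09 (1.42, 4.92e-06), Sr02Sc01R04C06 (0.62, 0.0167) and Sr02Sc01R07C08 (0.60, 0.00045). It was more negative in Landrace at Sr02Sc01R04C08 (-0.72, 0.00703), Sr02Sc01R08C03 (-0.61, 0.00169), Sr02Sc01R08C06 (-0.48, 0.0102) and Sr01Sc01R05C06 (-0.25, 0.0102). At Sr01Sc01R05C06 the loops alone gave -0.32 and the between-breed arrays alone -0.18, both after loess.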

How the results depend on the processing

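The dye term mattered most. Without it, 7 members were called for the breed difference in the change, 17 for the interaction with month and 19 for uneven steps, in place of 16, 34 and 33. Over all 140 positions 17, 34 and 38 were called, in place of 49, 82 and 76. The estimated differences in the change were the same with and without the dye term at Sr02Sc01R05C02 (1.50), Sr02Sc01R05C09 (1.42), Sr02Sc01R04C08 (-0.72) and Sr02Sc01R08C03 (-0.61). Only their adjusted p rose. Why the counts fell was not tested. The mean breed difference then split into 9 members higher and 15 lower in Landrace, in place of 10 and 11. Over all 140 it was then called at 57 positions, in place of 62. The other settings kept each of these counts of members within 1.5 times. Leaving out each array in turn gave 18 to 24 members for the mean breed difference, 15 to 17 for the change, 29 to 39 for the interaction, 26 to 34 for uneven steps and 0 for the level trend. The trend gave 0 members under every setting run. Its centring within each grid row and on median deviations was chosen after seeing the data. Of the 8 tested differences at named positions none changed direction, and 3 lost their call without the dye term, of which Sr02Sc01R05C02 also did from block 3 alone. Each of the 4 blocks alone gave 41 to 43 members, 39 of them shared, and centring within grid rows 40, of which 38 were shared. No paired analysis was possible because each pairing of RNAs was on 1 array. The series' table was not run as an alternative. With the RNA of each breed and age on 3 arrays, biological spread was not measured, and the signal of saturated spots is a lower limit.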
